A study of Mus musculus with 10 samples.

Results

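Germinal vesicle oocytes that lost Setdb1 during growth were compared with oocytes that carried the same Cre transgene and kept a wild-type Setdb1 allele. The comparison covers 8 of the 10 RNA-seq libraries of the series. The mutants are 4 libraries of genotype Setdb1 F/-; ZP3-cre, with a floxed and a minus allele. The Cre controls are 4 libraries of genotype Setdb1 F/+; ZP3-cre, where the floxed allele is paired with a wild-type one, and both groups carry the ZP3-cre transgene. ZP3-cre drives recombination in oocytes that have begun to grow, so earlier oocytes and the somatic cells of the ovary keep the floxed allele. The minus allele is present in every cell of a mutant mouse, and the Cre controls lack it. The 2 libraries of genotype Setdb1 F/- without Cre carry the minus allele and a floxed allele that is not recombined. They entered no fit, and their values are printed beside those of the 8. All mice were C57Bl/6J, each library is a pool of 16 denuded oocytes of 1 mouse, and the labels used here give no ages.

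SETDB1 methylates histone H3 at lysine 9. KRAB zinc finger proteins recruit it through the corepressor TRIM28 to retroviral elements and to single genes, and the mark is bound by HP1 proteins and held together with DNA methylation. A germinal vesicle oocyte waits in meiotic prophase, is close to transcriptionally silent when fully grown, and lives on the RNA it stored during growth. Its RNA therefore reflects both synthesis during growth and the stability of stored transcripts, and a pool cannot tell fewer oocytes with a transcript from less RNA per oocyte.

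Setdb1 was read first, as a check of the labels. Its level was 4.06, 2.55, 3.32 and 1.31 RPKM (reads per transcript length, relative to the library's total) in mutants 1 to 4. In Cre controls 1 to 4 it was 28.6, 25.7, 25.1 and 52.5 RPKM, and in the F/- libraries 19.9 and 26.3. Every mutant library lay below every other library, and Cre control 4 lay above the other Cre controls. Mutants averaged 2.81 ± 1.17 RPKM (SD, n = 4) and Cre controls 32.9 ± 13.1 (SD, n = 4), which left 8.53% in the mutants. On the log2(RPKM + 0.5) scale mutants minus controls came to -3.35, and the exact permutation test, two-sided, gave p = 0.0286, the minimum for 4 libraries against 4. The gene lies on the minus strand of chromosome 3 from 95323525 to 95357202 (GRCm38) and overlaps exons of Cers2 and Gm37500, which run the other way. Cers2 had 24.0 ± 4.59 RPKM in mutants and 19.7 ± 3.21 in Cre controls. The labels used here do not name the floxed exon, and the value covers the whole transcript.

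A gene counted as called where limma gave a Benjamini-Hochberg adjusted p below 0.05 over the 11356 tested genes, those whose 8 libraries averaged 0.5 RPKM or more. Of these, 521 were higher in mutants (4.59%) and 381 lower (3.36%), which makes 902 called in either direction (7.94%). A control mean below 1 RPKM, close to silence, was found for 1505 of the 11356 tested genes, among them 95 that rose and 6 that fell. The median control level was 7.81 RPKM in the higher genes and 5.77 over all genes tested. The filter and the added 0.5 RPKM make a fall from such a low level hard to see, so the numbers below 1 RPKM do not compare the directions. A gene with a mean below 0.5 RPKM in 1 group passed the filter through the other group, so its direction was fixed beforehand. Among genes with a control mean of 100 RPKM or more the balance was the other way, with 15 higher and 27 lower of 292 tested. The control mean that sorts these genes is also 1 side of the comparison, and a balance by level was not tested. Of the higher genes 242 differed by 1 or more log2 units and 76 by 2 or more, and of the lower genes 211 and 30. Mutant and control values did not overlap in 1013 genes towards higher (8.92%) and in 939 towards lower values in mutants (8.27%), and these include 499 increases and 376 decreases that were called. Scaling shifted the balance: increases made up 57.8% of calls without further scaling, 42.6% once library medians were aligned (404 against 544 decreases) and 46.5% with quantile normalization (467 against 538).

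**Figure D1:**
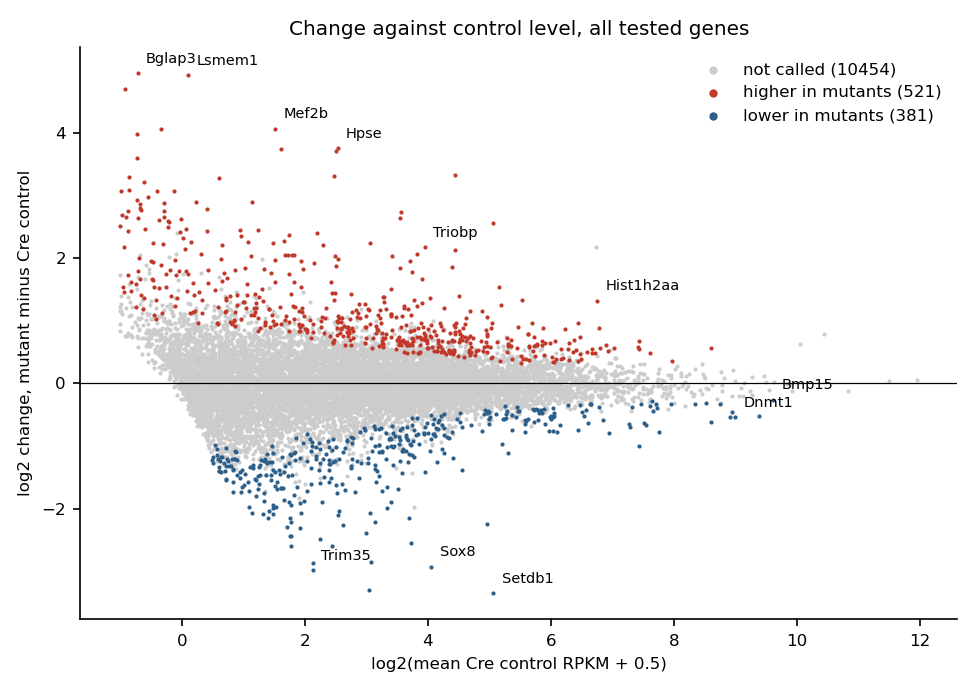
Each point is 1 of the 11356 tested genes; the x axis is the log2 of the mean Cre control RPKM plus 0.5 and the y axis the log2 change, mutant minus Cre control. The 521 genes called higher reach a change of 4.96 (Bglap3) from low control levels, and Setdb1, at -3.35, is the largest of the decreases named.

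Precision differed between the groups and between libraries. On the log2 scale a gene's SD had a median of 0.390 across mutants and 0.191 across Cre controls. Mutants 2 and 4 listed 184 and 156 tested genes at 0, against 24 to 42 in the other 6 libraries. Without these 2 libraries 731 genes were higher and 488 lower, of which 402 and 288 were among the calls of all 8. The counts fell when a Cre control was left out: without control 1, 2 or 4 the higher genes numbered 238, 240 and 244 and the lower genes 129, 123 and 131, and without control 3 they numbered 404 and 203. Why they fell was not tested. Read depth is not part of the RPKM table and was not recovered here, so the number of libraries and their spread set the precision.

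The largest increases took genes with few or no reads in control oocytes to middle levels. Lsmem1, which encodes a single-pass membrane protein, had 30.1, 37.2, 34.3 and 26.2 RPKM in mutants 1 to 4 and 0.510, 0.508, 0.510 and 0.753 in Cre controls 1 to 4. Bglap3, a relative of the bone hormone osteocalcin, had 20.4, 26.7, 14.2 and 14.1 RPKM in mutants against 0.0455, 0.0210, 0.223 and 0.142 in Cre controls. Ifi27l2a, of an interferon-inducible family, had 18.0, 10.5, 18.0 and 8.68 RPKM in mutants, was listed at 0 in Cre controls 3 and 4 and in both F/- libraries, and had 0.0351 and 0.0647 in controls 1 and 2. Non-overlapping groups were a condition for naming these 3 genes, and in each the lowest mutant library lay far above the highest Cre control. The log2 changes were 4.92 ± 0.19 (SE) for Lsmem1, 4.96 ± 0.27 for Bglap3 and 4.70 ± 0.29 for Ifi27l2a, with limma adjusted p of 1.5e-07, 1.5e-06 and 4.1e-06. The control means of Bglap3 and Ifi27l2a lay below 0.5 RPKM, so these genes passed the filter through their mutant values and had to be higher.

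Genes for a transcription factor, a transporter and a matrix enzyme followed. Mef2b, a MADS-box transcription factor, had 54.2, 50.4, 42.8 and 41.4 RPKM in mutants and 1.86, 2.45, 3.01 and 2.11 in Cre controls. The table also lists 2310045n01rik-mef2b, a readthrough transcript that holds Mef2b exons, at a mean of 39.9 ± 4.69 RPKM in mutants and 2.54 ± 0.463 in Cre controls, so both rows draw on the same reads. Slc38a1, a transporter of glutamine and other neutral amino acids, had 12.7, 11.6, 12.2 and 12.5 RPKM in mutants, the tightest set among the large increases, and 0.456, 0.460, 0.0125 and 0.218 in Cre controls. Hpse, which encodes the heparan sulfate cleaving enzyme heparanase, had 78.2, 58.4, 83.0 and 94.9 RPKM in mutants and 6.10, 4.76, 5.30 and 4.98 in Cre controls, a fold of 14.9 between the means. For all of them the F/- libraries lay at or near the Cre controls: Mef2b had 2.00 and 0.942 RPKM there, Slc38a1 0.518 and 0.755, and Hpse 7.81 and 4.23. Mef2b lies on the plus strand of chromosome 8 from 70139711 to 70167488 (GRCm38) and overlaps exons of Borcs8, which had 6.57 ± 2.35 RPKM in mutants and 5.35 ± 0.696 in Cre controls and was not called.

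The other large increases were Stox1, a winged-helix gene, at 9.22 ± 2.71 RPKM in mutants and 0.101 ± 0.108 in Cre controls, and Adam5, of the membrane metalloprotease family, at 6.89 ± 1.75 and 0.1004 ± 0.0737. Defb41, a beta-defensin gene, had 70.5, 36.8, 65.6 and 45.6 RPKM in mutants and 4.89, 3.14, 7.09 and 5.13 in Cre controls. Its F/- libraries had 19.7 and 59.3 RPKM, so 1 of these lay within the mutant range without Cre. Cyp2c29 and Cyp2c53-ps belong to a cluster described further on. The named increases other than Cyp2c53-ps passed in all 23 alternative settings run. Slc38a1, Stox1 and Adam5 also had control means below 0.5 RPKM and had to be higher.

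**Figure D2:**
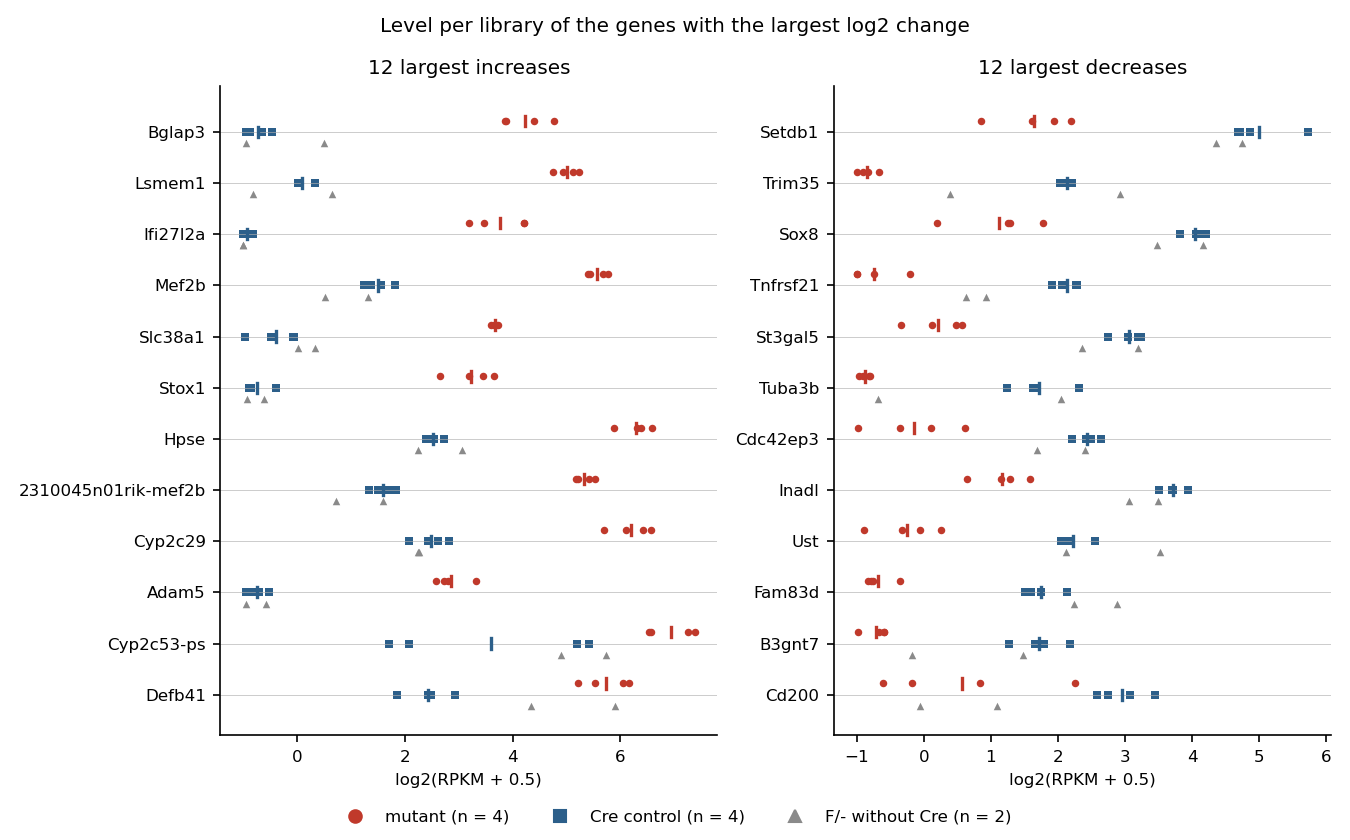
Level per library, as log2(RPKM + 0.5), of the 12 genes with the largest increase (left) and the largest decrease (right); circles are mutants, squares Cre controls, triangles F/- libraries without Cre, and a vertical bar is the mean of 4. Non-overlap of mutants and Cre controls was a condition for naming all 24. Of the F/- values, 1 of Defb41 lies among the mutants and those of Cd200 lie below all Cre controls.

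The largest decreases after Setdb1 itself were in genes of low to middle control level. Sox8, which encodes a transcription factor of the SoxE group, had 1.94, 2.92, 1.88 and 0.643 RPKM in mutants and 16.1, 16.9, 13.6 and 17.9 in Cre controls. Inadl, now named Patj and a scaffold of the Crumbs polarity complex, had 1.94, 1.07, 2.50 and 1.71 RPKM in mutants and 12.6, 12.5, 10.9 and 14.8 in Cre controls. St3gal5, which encodes the sialyltransferase that makes the ganglioside GM3, had 0.590, 0.992, 0.899 and 0.289 RPKM in mutants and 8.66, 7.76, 8.97 and 6.20 in Cre controls. Non-overlapping groups were a condition for naming these 3 genes. The log2 changes were -2.92 ± 0.30 (SE) for Sox8, -2.55 ± 0.23 for Inadl and -2.85 ± 0.27 for St3gal5 (limma adjusted p = 0.00017, 7.6e-05 and 1.0e-04). Their F/- libraries lay with or near the Cre controls, at 10.6 and 17.4 RPKM for Sox8, 7.84 and 10.8 for Inadl and 4.61 and 8.61 for St3gal5.

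Trim35, a ubiquitin ligase gene of the tripartite motif family, had 0.133, 0.0338, 0.0646 and 0 RPKM in mutants and 3.94, 3.91, 3.57 and 4.12 in Cre controls. Its F/- libraries differed from each other, at 7.10 and 0.818 RPKM. Tnfrsf21, which encodes death receptor 6, fell from 3.90 ± 0.543 to 0.116 ± 0.171 RPKM, and its F/- libraries lay between the groups at 1.04 and 1.39. Tuba3b, an alpha-tubulin gene of germ cells, fell from 2.91 ± 1.12 to 0.0468 ± 0.0299 RPKM, with 3.63 and 0.123 in the F/- libraries. Ust, a sulfotransferase for chondroitin and dermatan sulfate, fell from 4.24 ± 0.771 to 0.373 ± 0.275 RPKM, and B3gnt7, which extends keratan sulfate chains, from 2.88 ± 0.868 to 0.116 ± 0.0745. Cdc42ep3, an effector of the GTPase CDC42, fell from 4.95 ± 0.673 to 0.476 ± 0.441 RPKM, and Fam83d, whose product recruits a kinase to the spindle, from 2.91 ± 0.679 to 0.129 ± 0.104. All genes named so far in this paragraph had mutant means below 0.5 RPKM. They passed the filter through their Cre control values and had to be lower. Cd200, an immunoglobulin-family membrane protein, fell from 7.48 ± 2.17 to 1.52 ± 1.89 RPKM, but mutant 1 had 4.27 and the F/- libraries had 1.62 and 0.463, and its limma adjusted p of 0.021 was lost in 7 of 23 settings (up to 0.128). The unstranded kit cannot assign reads where exons overlap on opposite strands, as they do for Sox8, Trim35, Lsmem1, Cdc42ep3 and B3gnt7.

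Abundant oocyte transcripts changed by less on the log2 scale but by more in RPKM. Dnmt1, the maintenance DNA methyltransferase, had 331, 332, 373 and 367 RPKM in mutants and 537, 536, 453 and 512 in Cre controls, a log2 change of -0.54 ± 0.08 (SE, limma adjusted p = 0.0023). Rdx, which encodes the membrane and actin linker radixin, had 347, 310, 354 and 308 RPKM in mutants and 471, 485, 473 and 487 in Cre controls. The F/- libraries were at control level for Dnmt1 (509 and 538) and near the mutant level for Rdx (361 and 367). Nlrp9b, of the oocyte-expressed NLRP family, had 128, 120, 124 and 134 RPKM in mutants and 202, 212, 251 and 202 in Cre controls. These 3 genes and D10Wsu102e, which fell from 388 ± 36.6 to 252 ± 12.5 RPKM, passed in all 23 settings.

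The calls of 3 other abundant transcripts that fell were less stable, and Nlrp14 among them had the largest loss in RPKM of all genes named by this rule. Nlrp14 fell from 665 ± 85.5 to 464 ± 52.3 RPKM, with Cre control 3 above the others at 792, and its limma adjusted p of 0.015 was lost in 4 settings. Mdm4, an inhibitor of p53, fell from 428 ± 32.2 to 342 ± 17.3 RPKM and Bmp15, the oocyte growth factor that acts on granulosa cells, from 783 ± 29.3 to 653 ± 29.7. Their calls (limma adjusted p = 0.029 and 0.033) were lost in 10 and 12 of 23 settings, with adjusted p up to 0.172 and 0.343, among them the settings without Cre control 1, 2 or 4.

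Among abundant transcripts that rose, Hist1h2aa, a germ cell H2A histone gene, had 240, 290, 246 and 301 RPKM in mutants and 110, 114, 105 and 99.2 in Cre controls. Its F/- libraries lay between the groups, at 143 and 200 RPKM. Mb21d2 had 111, 86.5, 98.5 and 83.2 RPKM in mutants and 23.4, 18.2, 20.8 and 22.0 in Cre controls, with 27.5 and 65.5 in the F/- libraries. Glrx, which encodes the thiol oxidoreductase glutaredoxin, rose from 172 ± 8.09 to 276 ± 11.7 RPKM and Tubb6, a beta-tubulin gene, from 172 ± 8.46 to 253 ± 22.2. For both genes the F/- libraries, which lack the transgene, lay above all Cre controls, at 221 and 254 RPKM for Glrx and 240 and 273 for Tubb6. Nobox, a homeobox transcription factor required in early oocytes, rose from 194 ± 14.9 to 274 ± 25.5 RPKM, and Cript, a partner of synaptic scaffolds, from 85.9 ± 15.1 to 169 ± 31.4. Cdo1, cysteine dioxygenase, rose from 170 ± 36.2 to 250 ± 25.7 RPKM, a call (limma adjusted p = 0.034) lost in 11 of 23 settings (up to 0.341).

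**Figure D3:**
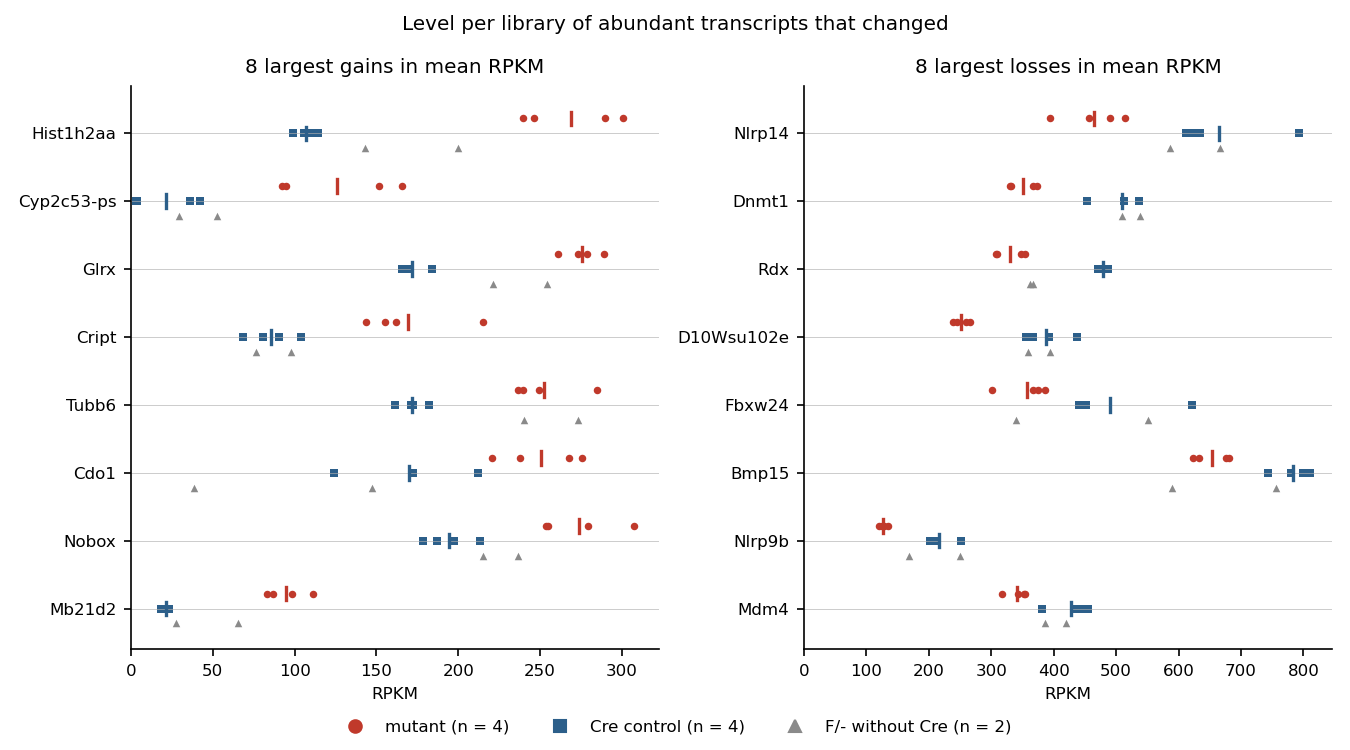
RPKM per library, on a linear axis from 0, of the 8 genes with the largest gain (left) and the 8 with the largest loss (right) in mean RPKM; symbols as for the largest changes. Non-overlap of mutants and Cre controls was a condition for naming all 16. For Tubb6, at 240 and 273 RPKM, the F/- triangles lie among the mutants.

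The 20 lists of genes by role are described by counts, to be read beside 4.59% higher and 3.36% lower of all tested genes, and by their median log2 change beside 0.00537 for all. In the machinery that SETDB1 works with, 3 of 16 tested partners, HP1 and HUSH genes rose and none fell. Atf7ip, the nuclear partner that stabilizes SETDB1, had 54.5, 68.4, 60.8 and 58.9 RPKM in mutants and 44.5, 46.0, 48.7 and 44.7 in Cre controls. Morc2a, an ATPase that works with the HUSH complex, rose from 11.3 ± 0.511 to 18.6 ± 3.59 RPKM, and Daxx, a histone H3.3 chaperone, from 12.2 ± 1.09 to 20.03 ± 5.01. None of these 3 calls is firm: after median centring 1 of the 16 was called, none was when mutant 3 or Cre control 1, 2 or 4 was left out, and the limma adjusted p over the settings reached 0.186 for Atf7ip, 0.0875 for Morc2a and 0.215 for Daxx. On the list of 17 other H3K9 methylation writers and erasers, Setdb1 apart, only Kdm1b rose, from 38.6 ± 0.705 to 55.2 ± 8.87 RPKM. That call was lost in 14 of 23 settings, with a limma adjusted p of up to 0.24. Kdm1b is a demethylase gene of the LSD family, and its place on the list does not make it an H3K9 eraser. Of 32 Polycomb genes only Cbx2 rose, from 32.1 ± 0.270 to 42.9 ± 2.70 RPKM (lost in 8 settings, limma adjusted p up to 0.12). Of 15 genes of DNA methylation and TET oxidation, Dnmt1 and the remodeller gene Hells fell and none rose. Hells had 12.3, 10.2, 8.99 and 10.7 RPKM in mutants and 18.4, 18.5, 21.3 and 19.4 in Cre controls and passed in all settings, with 20.6 and 11.3 in the F/- libraries. Of 24 piRNA and small RNA genes, Gtsf1 fell, from 153 ± 8.06 to 98.4 ± 16.9 RPKM.

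The meiotic lists held single calls in both directions. Of 29 genes of the cAMP pathway that keeps oocytes in prophase, 2 rose and 3 fell, with a median log2 change of 0.0750. Pde8a and Pde4a, which encode phosphodiesterases that break down cAMP, fell from 9.09 ± 1.69 to 4.03 ± 0.718 and from 1.81 ± 0.572 to 0.290 ± 0.189 RPKM. Gnai1, an inhibitory G protein subunit, fell from 18.7 ± 3.68 to 8.66 ± 2.95 RPKM, a call lost without Cre control 2, 3 or 4, and Pde8a and Pde4a were lost without Cre control 1 and 2 respectively. The row taken for Gnas, the locus of the stimulatory G protein subunit, is a non-coding RefSeq transcript of that locus, and it rose from 104 ± 3.16 to 148 ± 25.1 RPKM (limma adjusted p = 0.031, lost in 12 of 23 settings). Prkaca, the catalytic subunit of protein kinase A, rose from 9.01 ± 1.19 to 16.5 ± 5.04 (limma adjusted p = 0.041). Neither increase passed without mutant 3 or Cre control 1, 2 or 4. The protocol added milrinone, a phosphodiesterase inhibitor, to the medium of all groups. Of 33 genes of CDK1 control, Wee1, the inhibitory kinase, rose from 6.36 ± 0.644 to 11.0 ± 2.69 RPKM, Ppp2r2a, a phosphatase subunit, rose from 13.02 ± 1.23 to 21.9 ± 4.57, and Ccnb1, cyclin B1, fell from 43.5 ± 1.35 to 32.1 ± 4.57. Wee1 and Ccnb1 were lost in 12 and 13 of 23 settings, among them each of the 4 that left out a Cre control. Ppp2r2a was lost in 6 (limma adjusted p up to 0.0831), so no gene of this list passed without Cre control 1, 2 or 4.

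Of 46 spindle, kinetochore and checkpoint genes, 2 rose and 1, Fam83d, fell. Spc24, of the NDC80 complex, rose from 7.48 ± 0.986 to 14.7 ± 3.77 RPKM and Ska3, of the SKA complex, from 35.6 ± 0.350 to 45.7 ± 2.17. The Ska3 call was lost in 12 of 23 settings, among them both scalings and each left-out Cre control, and that of Spc24 in 4 (limma adjusted p up to 0.209 and 0.0673), so that without Cre control 2 or 4 neither passed. Of 36 cohesin, condensin and synapsis genes, 2 rose and 4 fell, with a median of -0.166: Sycp1, a synaptonemal complex protein gene, rose from 1.33 ± 0.303 to 3.60 ± 1.03 RPKM and Ncapg, a condensin subunit, from 71.3 ± 3.51 to 94.0 ± 10.9. Smc4, another condensin subunit, fell from 208 ± 12.6 to 164 ± 7.29 RPKM, Top2a, topoisomerase II, from 17.6 ± 1.25 to 11.6 ± 1.27, and Syce1 from 1.52 ± 0.964 to 0.120 ± 0.124, while Hormad2 was the fourth to fall. Without Cre control 2 no gene of this list passed in either direction, and 1 fell without Cre control 1 or 3 and 2 without control 4, while none rose without mutant 3 or Cre control 1 or 4 and 1 rose without mutant 2 or Cre control 3. Of 36 DNA damage genes 4 fell, namely Atr, Trp53bp1, Rif1 and Fanci, and H2afx rose. The kinase gene Atr fell from 8.32 ± 0.413 to 4.84 ± 0.606 RPKM and Trp53bp1, which encodes 53BP1, from 12.9 ± 0.385 to 8.01 ± 1.19, and both calls were lost when any Cre control was left out (limma adjusted p up to 0.0989 and 0.0909 over the settings). H2afx, the histone variant gene, had 174, 149, 138 and 137 RPKM in mutants and 92.3, 90.3, 82.7 and 89.5 in Cre controls, passed in all settings, and had 112 and 143 RPKM in the F/- libraries. None of 16 p53 and p63 targets and oocyte death genes was called by limma, and 4 had an unadjusted p below 0.05. The smallest adjusted p of that list was 0.15, for Casp2 at 4.44 ± 1.21 RPKM in mutants and 6.62 ± 0.871 in Cre controls.

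Of 40 oocyte and maternal-effect genes, 2 rose (Nobox and Nlrp4e) and 5 fell (Kit, Bmp15, Nlrp4f, Nlrp9b and Nlrp14), with a median log2 change of -0.0720. Kit, the receptor for the ligand made by granulosa cells, had 40.1, 34.1, 49.4 and 36.4 RPKM in mutants and 70.6, 68.4, 66.6 and 66.7 in Cre controls. Its F/- libraries were at control level, with 67.5 and 79.8 RPKM, and the call held in all settings. Of 23 genes of the contact between oocyte and granulosa cells 4 fell and none rose: Kit, Bmp15, the actin regulator gene Daam1, from 47.1 ± 2.78 to 31.3 ± 3.71 RPKM, and Myo10, a myosin of filopodia, from 56.8 ± 1.83 to 42.1 ± 3.15. Of 34 genes of the cytoskeleton and cell polarity 4 fell and none rose: Inadl, Cdc42ep3, Lin7c and Myo5b, a vesicle-transport myosin gene that fell from 55.5 ± 2.47 to 39.99 ± 4.02 RPKM. Of 37 genes of maternal mRNA storage and decay, Cpeb2 and Patl2 rose and Dazl and Cnot6l fell. Cnot6l, a deadenylase gene, fell from 58.5 ± 3.52 to 43.9 ± 4.31 RPKM, and Cpeb2, a polyadenylation factor, rose from 0.560 ± 0.186 to 2.55 ± 1.09. No gene of this list passed in either direction without Cre control 2 or 4, and Cnot6l, Patl2 and Cpeb2 were lost in 10, 8 and 5 settings. The granulosa contact and polarity lists held 2 decreases each without Cre control 2 or 4, and the former also without control 1, while the 5 decreases among oocyte genes became 3 without Cre control 1, 2 or 4.

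Of 22 genes of germ cells that somatic tissues keep silent, 4 fell (Dazl, Stk31, Tuba3b and Taf9b) and Sycp1 rose. Stk31, a kinase-domain gene of germ cells, fell from 11.2 ± 1.34 to 5.88 ± 1.61 RPKM, a call lost when any 1 Cre control was left out (limma adjusted p up to 0.0855). Without Cre control 1, 2 or 4 the list held 1 decrease, and 2 without control 3 or mutant 3 or 4. Only 6 of the 26 listed 2-cell-stage and MERVL-linked genes passed the filter on low values, so the list says little about that programme. Of these 6, Arg2, arginase 2, rose from 82.8 ± 13.3 to 133 ± 7.92 RPKM and Tcstv1 from 23.0 ± 6.66 to 38.7 ± 7.29, and the mutant and Cre control values of Tcstv1 overlapped. The Tcstv1 call (limma adjusted p = 0.042) was lost in 13 of 23 settings (up to 0.207), among them both scalings and those without Cre control 1, 2 or 4. The F/- libraries split for both, at 123 and 59.9 RPKM for Arg2 and 52.7 and 15.9 for Tcstv1. Of 13 tested genes of interferon and nucleic acid sensing, Ifi27l2a rose and Stat2, a signal transducer of interferon receptors, fell from 3.43 ± 0.419 to 1.54 ± 0.277 RPKM, and 11 were not called. The Stat2 call was lost in 7 settings, among them those without mutant 1 or any 1 Cre control (limma adjusted p up to 0.126). Of 22 genes of glycolysis, pyruvate and lipid use, 2 fell: Acadm, of fatty acid oxidation, from 2.79 ± 0.505 to 0.716 ± 0.363 RPKM and Fasn, fatty acid synthase, from 1.67 ± 0.433 to 0.356 ± 0.168. Neither passed without Cre control 1 or 2, and Fasn was also lost without control 3.

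**Figure D4:**
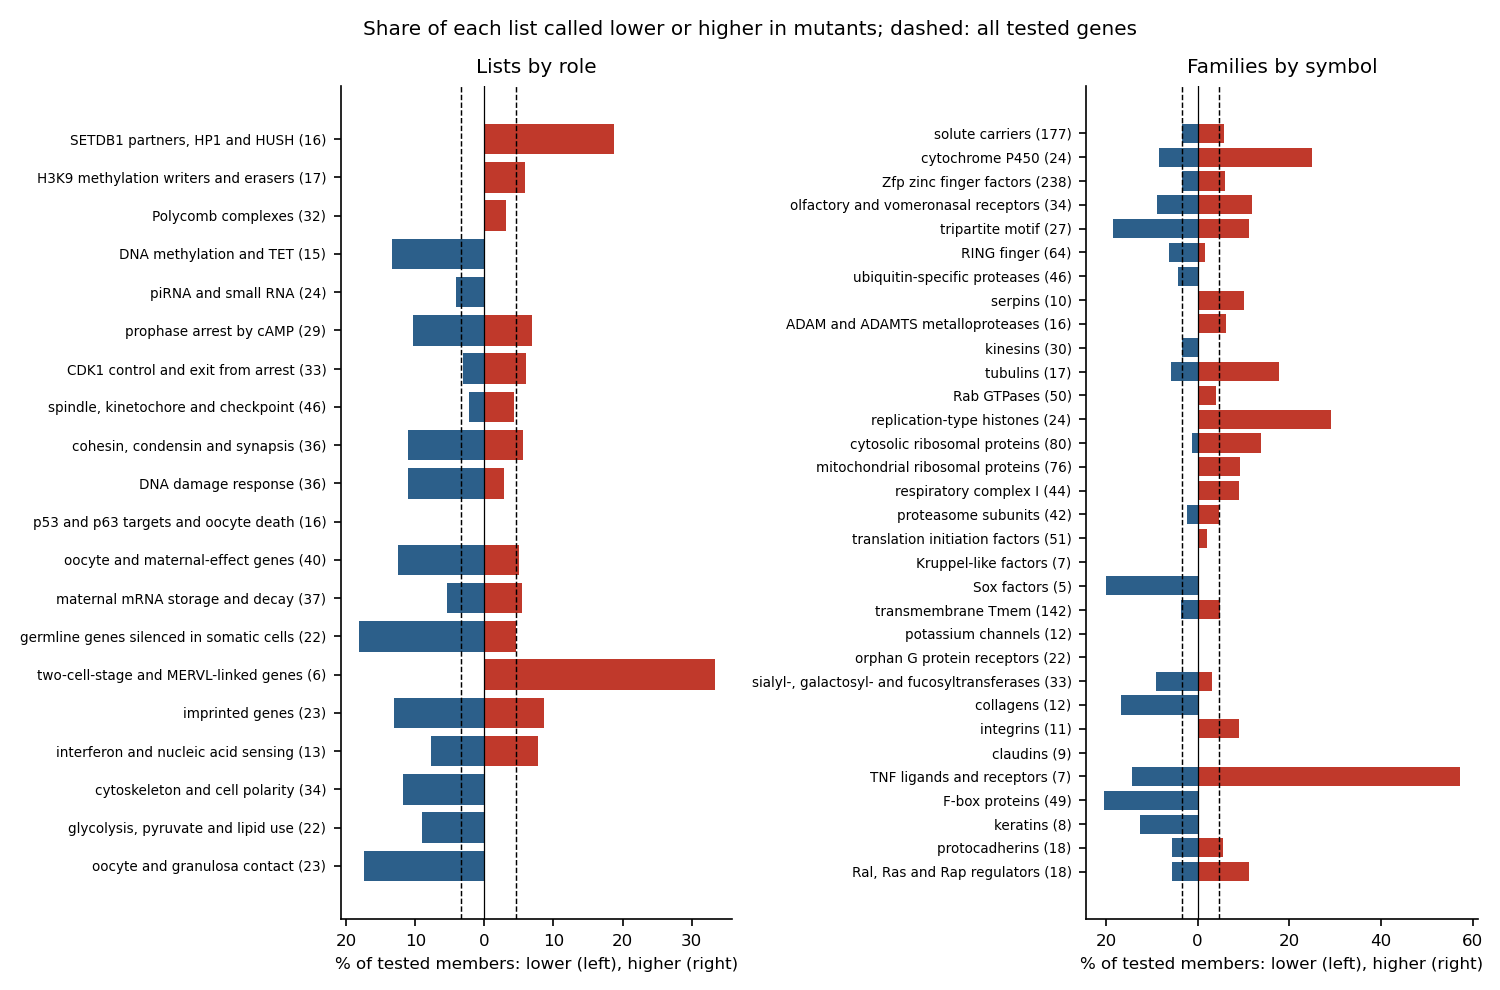
Share of the tested members of each list called lower (blue, to the left) or higher (red, to the right) in mutants, with the number tested in parentheses; dashed lines are 3.36% and 4.59%, the shares of all tested genes, and lists with fewer than 5 tested members are left out. The replication-type histones show 7 of 24 higher and none lower, and the F-box genes 10 of 49 lower and none higher.

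Families taken by gene symbol gave the clearest one-sided counts. These counts share a limit. A gene with a control mean below the 0.5 RPKM of the filter passed through its mutant values and had to be higher, as did Hist1h1d. Of 24 tested replication-type histone genes 7 rose and none fell, with a median log2 change of 0.866. Beside Hist1h2aa they were Hist2h2bb, from 1.43 ± 0.256 to 10.3 ± 2.77 RPKM, the linker histone genes Hist1h1a, from 48.7 ± 3.16 to 84.9 ± 12.03, and Hist1h1d, from 0.423 ± 0.183 to 1.68 ± 0.482, and Hist1h3g, Hist1h4c and Hist4h4. The count was 7 after median centring and 8 after quantile normalization, and between 3 (without Cre control 1 or 4) and 8 (without mutant 2 or 4) when single libraries were left out. Most histone transcripts of this kind lack a poly(A) tail and the table gives no priming detail, and the genes are near-identical copies, so a single gene is uncertain. The F/- libraries of Hist2h2bb, at 8.26 and 11.1 RPKM, lay within the mutant range.

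Of 80 cytosolic ribosomal protein genes 11 rose and 1, Rps3a1, fell, with a median log2 change of 0.370. Rps15 had 46.2, 51.6, 55.8 and 47.6 RPKM in mutants and 22.3, 23.9, 25.6 and 24.2 in Cre controls, and Rpl32 rose from 54.0 ± 4.54 to 83.5 ± 5.94. After median centring 6 rose, and leaving out single libraries left 4 (without Cre control 1, 2 or 4) to 13 (without Cre control 3). Of 76 mitochondrial ribosomal protein genes 7 rose and none fell (Mrps21 from 23.7 ± 3.06 to 46.5 ± 8.76 RPKM), and of 44 genes of respiratory complex I 4 rose and none fell (Ndufa4 from 57.3 ± 2.82 to 88.6 ± 10.6). Without Cre control 1 or 4 both families were down to 2. In none of the 12 called cytosolic ribosomal genes did both F/- libraries lie on the control side of the midpoint between the groups, and in 3 both lay on the mutant side. Messages for ribosomal proteins are short, and length moved with the direction of change: of the 1222 tested genes with a transcript under 1 kb, 7.45% rose and 2.13% fell, whereas of the 3117 over 4 kb, 3.08% rose and 4.81% fell. The median log2 change was 0.156 in the first group and -0.059 in the second, the median transcript length 2249 bases in the higher and 3315 in the lower genes, and the part of length in these results was not tested.

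Of 31 listed TNF ligands and receptors 7 were tested, and of these 4 ligands rose and Tnfrsf21 fell. The control mean of Tnfsf10 was 0.480 RPKM, so it passed the filter through its mutant values and had to be higher. Tnfsf10, which encodes the death ligand TRAIL, had 3.71, 4.58, 5.08 and 5.62 RPKM in mutants and 0.523, 0.589, 0.429 and 0.379 in Cre controls, with 0.260 and 0.487 in the F/- libraries. The others were Tnfsf13, from 0.538 ± 0.157 to 4.88 ± 3.39 RPKM, Tnfsf13b, from 3.29 ± 0.549 to 6.63 ± 1.23, and Tnfsf11, which encodes RANKL, from 1.86 ± 0.309 to 3.69 ± 0.463. Leaving out single libraries left between 1 (without Cre control 2) and 4 (without mutant 2) of these increases. Of 238 Zfp genes, many of which encode KRAB zinc finger proteins of the class that recruits SETDB1, 14 rose and 8 fell, near the shares of all genes, with 9 to 18 and 1 to 10 when single libraries were left out (lowest without Cre control 1 or 4, highest without mutant 2). Zfp58 had 116, 81.4, 91.0 and 129 RPKM in mutants and 35.8, 32.6, 39.8 and 32.9 in Cre controls, and Zfp169 rose from 3.91 ± 0.499 to 16.6 ± 4.71. Of 177 solute carrier genes 10 rose and 6 fell, with 6 and 1 without Cre control 1 or 4, 7 and 1 without control 2 and 7 and 2 without control 3. Slc7a8, a neutral amino acid transporter, rose from 4.41 ± 1.41 to 21.8 ± 4.08 RPKM. Of 34 tested olfactory and vomeronasal receptor genes, from 1456 listed, 4 rose and 3 fell. Olfr1197 had 7.32, 9.24, 7.66 and 5.13 RPKM in mutants against 0.293, 0.493, 0.412 and 0.476 in Cre controls. Olfr1197 and Olfr1257, with control means of 0.418 and 0.0201 RPKM, passed the filter through their mutant values and had to be higher. None of the 7 Kruppel-like factors, 12 potassium channels, 22 orphan G protein receptors and 9 claudins tested was called by limma, and an unadjusted p below 0.05 was found for 1, 0, 3 and 1 of them.

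Of 49 F-box genes, whose products are substrate adaptors of SCF ubiquitin ligases, 10 fell and none rose, and 8 of the 10 were Fbxw genes of a single array on chromosome 9. RefSeq places 15 Fbxw genes there (GRCm38, 109139454 to 109790660), 13 are in the table, and all 13 passed the filter on low values. All 13 log2 changes were below 0, from -0.99 for Fbxw18 to -0.04 for Fbxw26, with a median of -0.462, and in 10 of the 13 the mutants lay below the Cre controls with no overlap, against 8.27% of all tested genes. The start sites of these copies resemble each other: among the 10 with a promoter in the RefSeq table, the 250 bases before the start are 71.6% to 96.8% identical in pairwise alignment (median 86.4%, 45 pairs). The 120 bases before the annotated start are printed 5′ to 3′ for 3 genes that fell and for Fbxw26, which was not called, to show how alike copies with different changes are. They lie on the minus strand at chr9:109449141-109449260 for Fbxw16, chr9:109702701-109702820 for Fbxw18, chr9:109234755-109234874 for Fbxw20 and chr9:109746090-109746209 for Fbxw26 (RefSeq, GRCm38.p6), and capitals mark the longest run shared by all 10.
Fbxw16: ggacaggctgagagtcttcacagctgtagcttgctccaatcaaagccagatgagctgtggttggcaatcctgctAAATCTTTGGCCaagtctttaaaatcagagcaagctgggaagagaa
Fbxw18: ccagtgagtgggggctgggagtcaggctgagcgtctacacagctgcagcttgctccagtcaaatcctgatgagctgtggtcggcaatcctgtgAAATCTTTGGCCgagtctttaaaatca
Fbxw20: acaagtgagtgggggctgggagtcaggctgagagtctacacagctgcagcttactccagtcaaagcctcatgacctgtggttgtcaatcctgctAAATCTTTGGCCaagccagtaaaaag
Fbxw26: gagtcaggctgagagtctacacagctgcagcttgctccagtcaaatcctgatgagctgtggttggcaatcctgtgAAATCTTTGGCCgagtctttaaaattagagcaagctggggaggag

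The shared run of 12 bases, AAATCTTTGGCC, was searched on both strands and stands in 13 of 32851 RefSeq promoters of 300 bases (0.0396%), 11 of which belong to this array. The run was chosen because every compared promoter of the array holds it, so its presence in them was fixed beforehand. That holds for Fbxw26 as for the 7 genes that fell and have a promoter entry. The run is a description of likeness and names no site. Fbxw16 had 64.7, 78.5, 61.2 and 79.5 RPKM in mutants and 118, 116, 132 and 122 in Cre controls. Fbxw20 had 53.03, 43.1, 51.2 and 58.4 RPKM in mutants and 75.8, 77.6, 101 and 92.2 in Cre controls. For both, every mutant lay below every Cre control, and the calls held in all settings (limma adjusted p = 0.0011 and 0.0048). Fbxw18, with the largest change of the array, had 82.3, 64.2, 68.6 and 144 RPKM in mutants and 150, 155, 227 and 158 in Cre controls, so mutant 4 came close to the controls. Fbxw26 had 47.4, 74.4, 43.0 and 78.7 RPKM in mutants and 58.1, 56.0, 67.7 and 61.5 in Cre controls, which overlap. Fbxw24, at 357 ± 38.2 RPKM in mutants and 491 ± 87.1 in Cre controls the most abundant of the array, was lost in 15 of 23 settings (limma adjusted p 0.045, up to 0.214).

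Cre control 3 had the highest control value in all 13 genes, and without it 5 of the 13 fell by limma. The number was 11 after median centring and after quantile normalization, 6 without mutants 2 and 4, and 3 (without Cre control 2 or 4) to 7 (without mutant 4) when single libraries were left out. In 7 of the 13 both F/- libraries lay on the control side of the midpoint and in none did both lie on the mutant side. Reads that match several copies of such an array can be dropped or split in counting, and no source used here says how they were treated. The array was singled out after its values were seen.

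**Figure D5:**
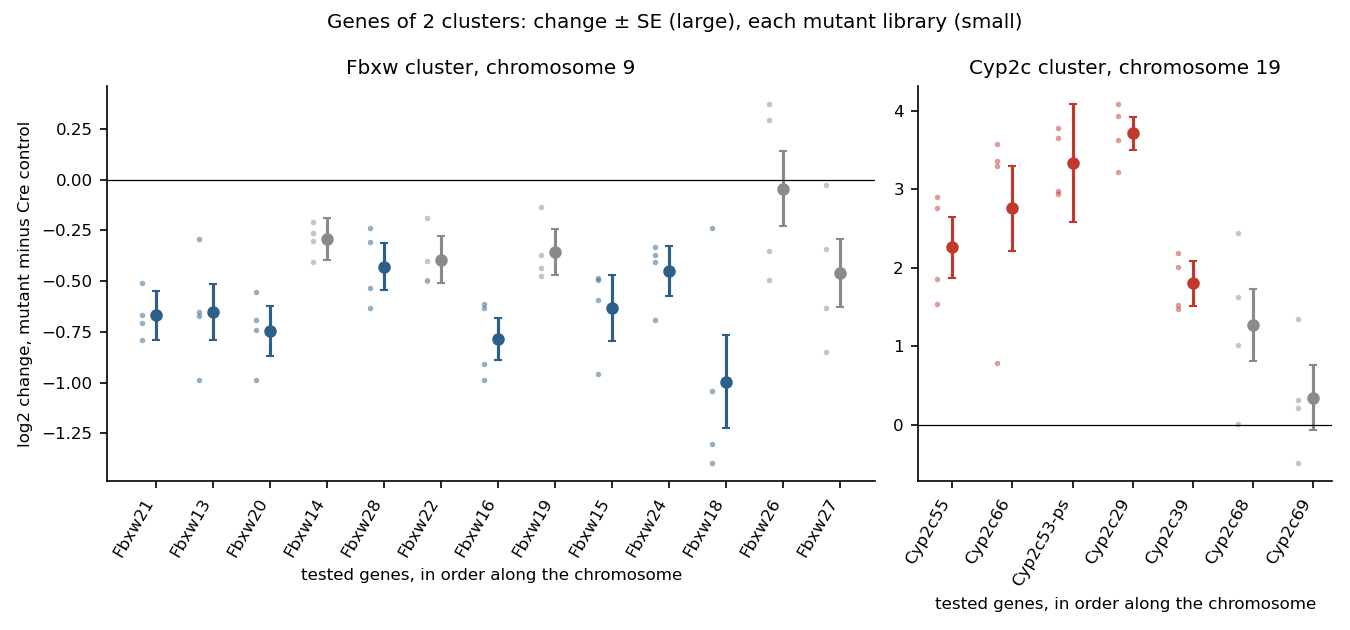
Log2 change ± SE (large points) and each mutant library against the mean of the Cre controls (small points) of the 13 tested Fbxw genes (left) and the 7 tested Cyp2c genes (right), in order along the chromosome; blue is lower, red higher and grey not called. The Fbxw changes lie between -0.99 and -0.04 and the Cyp2c changes between 0.35 and 3.71.

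The opposite pattern stood on chromosome 19, where 5 Cyp2c genes with no other tested gene between them rose together. They encode cytochrome P450 enzymes that oxidize fatty acids and drugs. Cyp2c29 had 68.3, 94.2, 84.8 and 51.6 RPKM in mutants and 5.62, 3.73, 6.54 and 4.91 in Cre controls, with 4.23 and 4.31 in the F/- libraries. Cyp2c55 rose from 0.607 ± 0.401 to 4.93 ± 2.37 RPKM, Cyp2c66 from 0.0457 ± 0.0548 to 4.09 ± 2.48 and Cyp2c39 from 0.108 ± 0.0657 to 1.65 ± 0.528. The transcribed pseudogene Cyp2c53-ps had 92.5, 151, 94.5 and 166 RPKM in mutants, and its controls split: 3.72 and 2.76 in Cre controls 1 and 2, 42.3 and 36.1 in controls 3 and 4, and 52.9 and 29.4 in the F/- libraries. Its limma adjusted p of 0.023 was lost in 7 settings (up to 0.16), and it shares exon sequence with Cyp2c29 on the same strand. Of 19 Cyp2c genes that RefSeq places on chromosome 19, 15 are in the table and 7 passed the filter on low values. A gene that passed only through its mutant values had to be higher, so the count of 5 of 7 carries no weight by itself. The 2 others tested, Cyp2c68 and Cyp2c69, had 1.30 ± 1.18 and 0.954 ± 0.808 RPKM in mutants and 0.127 ± 0.0850 and 0.573 ± 0.330 in Cre controls and were not called. When single libraries were left out, 4 to 6 of the 7 were called higher. Outside the cluster, Cyp7a1, the rate-limiting enzyme of bile acid synthesis, rose from 1.81 ± 0.375 to 5.20 ± 2.30 RPKM, while Cyp2j12 fell from 2.89 ± 0.820 to 0.248 ± 0.0861 and Cyp1b1 from 1.14 ± 0.2204 to 0.0664 ± 0.0618.

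In the imprinted Peg3 domain of chromosome 7, 4 neighbouring transcripts fell together: Peg3, Peg3os, Usp29 and Zim3. Exons of Usp29 and Zim3 overlap on opposite strands. The unstranded kit cannot assign reads there, so these decreases may not be separate. Usp29 had 2.41, 3.78, 1.45 and 2.32 RPKM in mutants and 5.28, 5.73, 5.84 and 5.74 in Cre controls, and Zim3 3.94, 6.65, 2.45 and 4.48 against 8.61, 8.80, 8.18 and 9.35. Peg3, a zinc finger gene expressed from the paternal allele, had 2.11, 2.28, 2.49 and 1.07 RPKM in mutants and 4.46, 3.82, 4.04 and 4.36 in Cre controls, but 2.22 and 2.72 in the F/- libraries, 1 within the mutant range and 1 between the groups. The 4 calls are close to the threshold (limma adjusted p from 0.025 for Usp29 to 0.0499 for Peg3os), and none of the 4 passed once Cre control 1, 2, 3 or 4 was left out. The domain was singled out after its values were seen. Of all 23 tested imprinted genes, 3 fell (Peg3, Usp29 and Igf2) and 2 rose (Gnas and Dio3), and without Cre control 2 none was called in either direction, while without control 1, 3 or 4 1 fell and none rose. The growth factor gene Igf2 fell from 1.62 ± 0.774 to 0.126 ± 0.115 RPKM, and Dio3, which inactivates thyroid hormone, rose from 0.245 ± 0.0825 to 1.02 ± 0.113.

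Neighbouring calls were counted over all called genes, the arrays included. A called gene had a neighbour called the same way for 51 of 520 placed higher genes (9.81%, against 9.09% of all placed genes next to a higher gene) and for 42 of 380 lower genes (11.05% against 6.79%). The other runs of at least 3 were Cdc42ep3, Cyp1b1 and Atl2 on chromosome 17, lower, and Triobp with Gm10865 and Mir6956 on chromosome 15, higher. Runs, unlike the neighbour counts, allowed overlapping genes. The Triobp run spans 78947724 to 79011041 with log2 changes of 2.17 to 2.37, and its members may share reads, which was not tested. Triobp, an actin-binding protein gene, had 55.3, 73.4, 65.6 and 85.7 RPKM in mutants and 15.0, 14.8, 16.4 and 13.7 in Cre controls. Across the 19 autosomes and X, the share of tested genes called higher lay between 2.75% (chromosome 16) and 5.63% (chromosome 3) and the share called lower between 1.69% (chromosome 5) and 5.25% (X).

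The F/- libraries show where oocytes with the minus allele but without Cre stood on the genes that separate mutants from Cre controls. Both lay on the control side of the midpoint between the group means in 272 of the 521 higher genes (52.21%) and in 164 of the 381 lower genes (43.04%), against 32.51% of all tested genes. Both lay on the mutant side in 62 (11.9%) and 54 (14.17%), against 21.11% of all. Of the 76 genes higher by at least 2 on the log2 scale, 56 had both F/- libraries on the control side and 3 had both on the mutant side. Of the 30 lower by at least 2, 14 had both on the control side and 4 both on the mutant side. Tmem182, with a log2 change of -1.50 and so not among these 30, also had both on the mutant side. It had 2.31, 1.83, 2.02 and 2.12 RPKM in mutants, 8.02, 6.74, 6.84 and 5.69 in Cre controls and 1.13 and 0.641 in the F/- libraries. No test was run on these counts, since there are 2 F/- libraries and the called genes were chosen on the other 8.

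The oocyte identity of the pools was read from marker genes. The summed level of 8 oocyte markers was 4953 to 5030 RPKM in mutants and 4957 to 6337 in Cre controls, and Bmp15 was the 1 marker of these to be called. The 13 markers of granulosa and cumulus cells summed to 78.1 to 111.7 RPKM in mutants and 90.8 to 104 in Cre controls, with Lhcgr at 0 in all 8 libraries, and none of the 7 tested was called by limma (1 at an unadjusted p below 0.05). Serpine2 alone gave 57.6 to 79.3 RPKM in mutants and 67.1 to 82.8 in Cre controls, so these sums say little about the other markers. The 10 markers of theca and stroma summed to 0.959 to 3.91 and 1.38 to 2.36 RPKM, with Cyp17a1, Col1a2 and Col3a1 at 0, and the 11 markers of blood, immune and endothelial cells in the table to 22.9 to 43.4 and 30.0 to 40.3, with Hba-a1, Hbb-b1 and Cdh5 at 0. These ranges overlap between mutants and Cre controls for each list, but Adgre1 and Cd68, markers of macrophages, did not follow the sums. Adgre1 had 0.458, 0.658, 0.271 and 0.836 RPKM in mutants and was listed at 0 in all 4 Cre controls, and Cd68 had 7.99, 0.372, 7.16 and 0.0420 in mutants and 0.5003 to 1.46 in Cre controls. Other markers of such cells did not share this. C1qb had 15.8, 12.1, 11.6 and 11.4 RPKM in mutants and 10.8 to 17.8 in Cre controls (limma adjusted p = 0.848). Ptprc was at 0 in all 4 mutants, and Lyz2 had at most 0.347 RPKM in any of the 8 libraries. The part of these markers in the results was not tested.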

How the data were processed

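The authors deposited RPKM per RefSeq transcript, already scaled to transcript length and library total, for 10 libraries. Per the labels' protocols, NuGen Ovation amplified the RNA and a TruSeq DNA kit, which keeps no strand, turned the cDNA into libraries. Listed in the submitters' processing notes are STAR, mm10 and bcl2fastq 1.8.3. No source used here states the counting tool. From the 34768 rows, the row with the highest mean over the 8 libraries stood for each of 24453 symbols. Tests used limma 3.58.1 (R 4.3.3) on log2(RPKM + 0.5), with an empirical Bayes trend and Benjamini-Hochberg adjustment over 11356 genes. The added 0.5 shrinks the changes of low genes. The model was also run on simulated data with the same SD in both groups, so that run does not cover the wider spread of the mutants.

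Genes were named by rule: Setdb1; among called genes with non-overlapping groups and a higher mean of 1 RPKM or more, the 12 largest log2 changes and 8 largest RPKM changes each way; and, by smallest p, up to 3 called genes per role list (1 uncalled where none was called) and 2 per family. The first rules passed over 1 predicted gene or small RNA among the decreases and 2 among the RPKM gains. Other list and cluster members were named after their values were seen. Members and lists were chosen with earlier results of these data known. Promoter CpG content was void as a check, since 79.3% of the higher genes had a RefSeq promoter. Transcript lengths came from GENCODE M21. Alternatives covered the pseudocount, scaling, filter, spread, weights, transcript rows, threshold, the F/- libraries in the model, a replicate block and left-out libraries. A gene family is not reported here or drawn.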

Additional observations from a re-analysis of the deposited data

Results flagged for a closer look

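In 242 groups of 4 libraries (121 named genes, mutants and Cre controls), 16 had 1 library whose distance from the nearest other exceeded Dixon's critical share of the group's range, which chance does in about 1 in 20 groups. Cre control 4 stood high for Setdb1 (52.5 RPKM against 25.1 to 28.6), Lsmem1 (0.753 against 0.508 to 0.510) and Tubb3 (64.8 against 54.4 to 56.1). Cre control 3 stood high for Stox1 (0.262 against 0.0387 to 0.0525), Nlrp14 (792 against 611 to 635), Fbxw24 (621 against 440 to 452), Smc4 (226 against 200 to 202) and Trim26 (10.6 against 9.06 to 9.13), and low for Col6a6 (11.4 against 13.2 to 13.5). Cre control 2 stood high for Ccnb1 (45.5 against 42.6 to 42.9), as did mutant 1 (38.8 against 28.8 to 30.3), which brings Ccnb1 in mutant 1 nearest to the controls. Mutant 1 stood high for Slc7a8 (27.9 against 18.9 to 20.4), mutant 2 for Syce1 (0.304 against 0.0376 to 0.0781) and Stat2 (1.95 against 1.37 to 1.42), and mutant 3 for Fam83d (0.284 against 0.0630 to 0.0906). Mutant 4 stood low for Atr (3.93 against 5.09 to 5.23).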

How the results depend on the processing

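The counts of higher and lower genes moved by more than 1.5 times in several settings. The higher genes, 521 in the main model, numbered 282 with no filter on low values and 795 with array weights. With the F/- libraries as a separate group in the model 313 were higher and 241 lower, and at an adjusted p of 0.01 199 and 100. Over all tested genes, same-numbered libraries did not deviate together (correlations -0.0440 to 0.0359). Pairing in a smaller set of genes was not tested. With the replicate block 389 were higher and 235 lower. Leaving out 1 library at a time gave 238 to 655 higher and 123 to 463 lower genes, the lowest without Cre controls 1 and 2 and the highest without mutant 2. Without mutants 2 and 4, an alternative chosen after the data were seen, the Setdb1 difference was -2.93, where the exact test cannot reach 0.05. None of the 121 genes named by rule changed direction in any setting. Of 119 called named genes, 61 passed in every setting in which they were tested, 24 were lost in 1 to 5 settings and 34 in more than 5. The cause of these shifts was not tested. Depth is unknown from RPKM, so values near 0 have no stated error.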
